A study of Mus musculus with 4 samples.

Results

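Caveolae genes are followed here across 4 stable lines made from mouse 3T3-L1 preadipocytes, a cell line that turns into fat-storing cells under adipogenic hormones. The set holds the caveolins Cav1 and Cav2, the cavins Cavin1, Cavin2 and Cavin3, and the accessory genes Ehd2 and Pacsin2. These 7 genes were chosen by symbol, as genes of 1 structure, and all 7 were found among 13085 genes. Cavin1, Cavin2 and Cavin3 are the current symbols of Ptrf, Sdpr and Prkcdbp. RNA-seq compared FLAG-CACUL1 cells, which overexpress FLAG-tagged CACUL1, with FLAG cells that carry the empty FLAG vector. It also compared sh-CACUL1 cells, in which a short hairpin RNA is directed against CACUL1, with sh-Luc cells, whose hairpin targets luciferase. CACUL1 is a protein that the study examines as a regulator of PPARγ and adipogenesis, and the question was how its gain and its loss change the adipocyte transcriptome. The plasmids were introduced by transfection, the FLAG pair was selected with G418 and the sh pair with Hygromycin B, and resistant colonies were kept as stable lines, each from 1 clone or several (the sources used here do not say which). All 4 lines received the same adipogenic mixture of 5 μM rosiglitazone, 0.5 mM IBMX, dexamethasone at 1 μg/ml and insulin at 5 μg/ml, and RNA was taken on day 8. Rosiglitazone is an agonist of PPARγ, and the controls received it too. Each line is 1 sample, so no difference given here has a replicate check and none was tested.

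Caveolae are flask-shaped pits of the plasma membrane that are dense in adipocytes, endothelium and muscle. Caveolin proteins insert into the inner leaflet as oligomers that bind cholesterol, and a coat of cavins on the cytosolic face shapes the pit. In adipocytes caveolae take up a large part of the cell surface, hold lipid and receptor proteins, and loss of caveolin-1 or cavin-1 in mice or humans leads to lipodystrophy.

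Values are FPKM (fragments per kilobase of transcript, scaled by the mapped fragments of the sample), which allows levels to be compared between genes. The number of fragments is not given with the values, but the steps between low FPKM values put it at 14300000 to 24000000 per sample, with sh-Luc the deepest. At that depth the 7 genes were represented by an estimated 195 to 23007 fragments each. Counting error was at most 7.16% (Cavin2 in FLAG-CACUL1) and covers counting only, not variation between cultures. Changes are given as log2 ratios of FPKM + 1, and a gene was called at 2-fold or more on that scale. Cacul1 itself was at 9.61 FPKM in FLAG against 11.8 in FLAG-CACUL1, and 10.2 in sh-Luc against 5.39 in sh-CACUL1. The log2 change was 0.27 on overexpression and -0.82 on depletion, so neither change reached 2-fold at the RNA level. Whether these values include RNA of the FLAG-CACUL1 plasmid is not stated. The study checked the protein in its stable lines by western blot, with antibodies to FLAG or to CACUL1.

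Cav1 and Cavin1 were among the more abundant transcripts in all 4 lines. Cav1 ranked between 141 and 411 of the 13085 genes, and Cavin1 between 243 and 641. Cavin2 and Pacsin2 were the least abundant members, each below the lowest level of Cav2, 44.6 FPKM, in every sample. Cavin2 ranked 8016 in FLAG-CACUL1, where only 38.7% of genes were lower. Summed over the 7 genes, the level was 1133 FPKM in FLAG against 535 in FLAG-CACUL1, and 710 in sh-Luc against 870 in sh-CACUL1. The sum was therefore highest in one of the controls and lowest in the overexpressing line, and Cav1 alone made up 53.2% of it in FLAG against 29.9% to 36.1% in the other lines. In bulk RNA, a smaller number of cells that express a gene and less of its RNA per cell cannot be told apart.

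**Figure D1:**
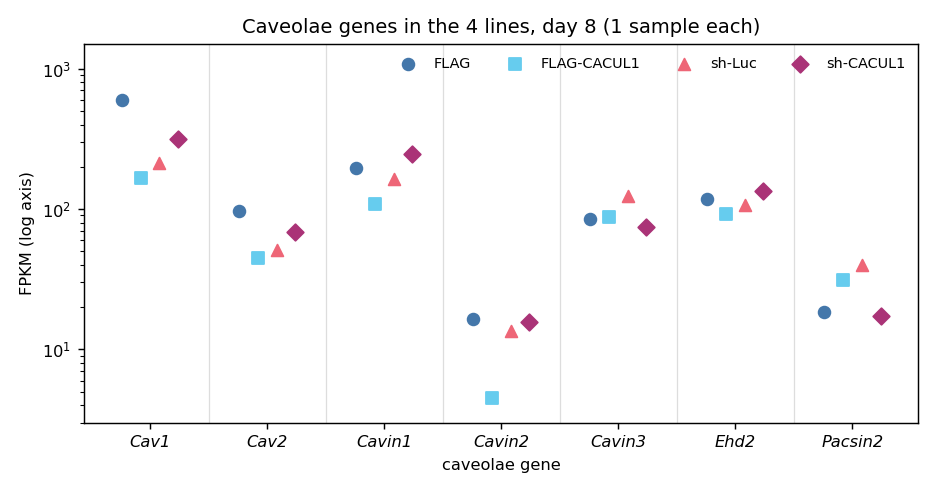
FPKM of the 7 caveolae genes on a log axis, with 1 point for each of the 4 lines (1 sample each, no error bars). FLAG-CACUL1 is the lowest point for Cav1, Cav2, Cavin1, Cavin2 and Ehd2, whereas Cavin3 and Pacsin2 are lowest in sh-CACUL1 and highest in sh-Luc.

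Cav1 encodes caveolin-1, the main structural protein of the pit outside striated muscle. It lies at chr6:17306335-17341328 on the plus strand of GRCm38 and was measured as 1 row for the transcripts NM_001243064 and NM_007616. Cav1 was at 603 FPKM in FLAG against 166 in FLAG-CACUL1, and 212 in sh-Luc against 314 in sh-CACUL1. FLAG stood above the other lines, at 1.92 times the next highest sample, and FLAG-CACUL1 was lowest. Cav1 was 3.62-fold lower in FLAG-CACUL1 relative to FLAG (log2 change -1.85) and 1.48-fold higher in sh-CACUL1 relative to sh-Luc (log2 change 0.56). The controls were themselves 2.84-fold apart, with FLAG above sh-Luc.

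Cav2 encodes caveolin-2, which needs caveolin-1 to reach the cell surface. It lies at chr6:17281185-17289130 on the same strand, and its end is 17205 bases before the start of Cav1. Cav2 was at 96.8 FPKM in FLAG against 44.6 in FLAG-CACUL1, and 50.9 in sh-Luc against 68.2 in sh-CACUL1. The 4 samples thus stood in the same order for both caveolins, FLAG, sh-CACUL1, sh-Luc and FLAG-CACUL1, and 2.55% of all genes had this order. Cav2 was 2.17-fold lower in FLAG-CACUL1 relative to FLAG (log2 change -1.10) and 1.34-fold higher in sh-CACUL1 relative to sh-Luc (log2 change 0.41).

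The 250 bases before the start of each caveolin are shown because this pair of neighbouring genes had the same order of samples. They are reference sequences of RefSeq on GRCm38.p6 in the direction of the gene, chr6:17306085-17306334 on the plus strand for Cav1 and chr6:17280935-17281184 on the plus strand for Cav2, and capitals mark matches to the motifs searched. Cav1 has a second annotated start downstream, chr6:17307390-17307639 for its window, which holds no match and is not shown.
Cav1: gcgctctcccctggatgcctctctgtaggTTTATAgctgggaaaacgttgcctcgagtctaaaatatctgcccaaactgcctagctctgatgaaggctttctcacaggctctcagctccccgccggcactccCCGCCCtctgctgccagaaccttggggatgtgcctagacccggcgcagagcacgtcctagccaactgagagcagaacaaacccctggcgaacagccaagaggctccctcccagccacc
Cav2: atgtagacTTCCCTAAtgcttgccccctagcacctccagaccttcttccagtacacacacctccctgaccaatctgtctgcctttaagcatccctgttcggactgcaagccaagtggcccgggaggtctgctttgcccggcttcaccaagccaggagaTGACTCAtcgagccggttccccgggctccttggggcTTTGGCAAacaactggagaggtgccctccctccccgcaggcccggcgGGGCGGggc

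Cavin1 encodes cavin-1, the coat protein that caveolae cannot form without. It lies at chr11:100956736-100970617 on the minus strand. Cavin1 was at 197 FPKM in FLAG against 108 in FLAG-CACUL1, and 163 in sh-Luc against 247 in sh-CACUL1. Here the depleted line was highest, 1.26 times FLAG, and FLAG-CACUL1 was again lowest. The log2 change was -0.86 in FLAG-CACUL1 against FLAG and 0.60 in sh-CACUL1 against sh-Luc, both under 2-fold, and the controls were 1.21-fold apart.

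Cavin2 encodes cavin-2, a coat subunit that bends and elongates the caveolar membrane, and it was the least abundant member in each of the 4 samples. It lies at chr1:51289126-51302960 on the plus strand. Cavin2 was at 16.5 FPKM in FLAG against 4.48 in FLAG-CACUL1, and 13.6 in sh-Luc against 15.6 in sh-CACUL1. FLAG-CACUL1 stood apart from the other lines, which lay within 1.22-fold of each other. The log2 change was -1.68 in FLAG-CACUL1 against FLAG and 0.19 in sh-CACUL1 against sh-Luc. Cavin2 was the only member with FLAG-CACUL1 more than 2-fold below both controls, with a log2 difference of -1.41 from sh-Luc.

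The bases before the Cavin2 start, chr1:51288876-51289125 on the plus strand of GRCm38.p6 in RefSeq, are shown since this gene had the largest fold change of the set on the FPKM scale, 3.69-fold lower in FLAG-CACUL1 relative to FLAG. They hold none of the motifs searched, and their GC content was 40.4%, against a median of 52.4% over all promoter windows.
Cavin2: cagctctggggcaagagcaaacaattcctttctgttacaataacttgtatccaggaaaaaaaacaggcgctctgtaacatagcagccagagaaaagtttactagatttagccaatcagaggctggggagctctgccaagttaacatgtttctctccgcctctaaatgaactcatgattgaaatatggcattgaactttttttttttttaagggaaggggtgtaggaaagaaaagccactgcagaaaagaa

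Cavin3 encodes cavin-3, which binds protein kinase C delta and takes part in signaling and trafficking at caveolae. It lies at chr7:105480616-105482197 on the minus strand. Cavin3 was at 85.0 FPKM in FLAG against 87.4 in FLAG-CACUL1, and 124 in sh-Luc against 74.1 in sh-CACUL1. The sh-Luc sample was highest and the other lines lay close together, so Cavin3 had neither the order of Cavin1 nor that of Cavin2. Its log2 change was 0.04 in FLAG-CACUL1 against FLAG and -0.73 in sh-CACUL1 against sh-Luc. Gm45667, annotated on the opposite strand, shares 374 exon bases with Cavin3, and without a stated strand in the counting, reads from the pair cannot be told apart.

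Ehd2 encodes an ATPase that forms a ring at the neck of caveolae and holds them at the surface. It lies at chr7:15946963-15967535 on the minus strand. Ehd2 was at 117 FPKM in FLAG against 92.7 in FLAG-CACUL1, and 107 in sh-Luc against 134 in sh-CACUL1, the narrowest range of the 7 genes at 1.45-fold. Its samples stood in the order of Cavin1, but each step between neighbours was 1.09-fold to 1.15-fold. The log2 change was -0.33 in FLAG-CACUL1 against FLAG and 0.32 in sh-CACUL1 against sh-Luc.

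Pacsin2 encodes an F-BAR protein that curves membranes and takes part in caveola formation and endocytosis. It lies at chr15:83375607-83464610 on the minus strand. Pacsin2 was at 18.4 FPKM in FLAG against 31.4 in FLAG-CACUL1, and 40.2 in sh-Luc against 17.2 in sh-CACUL1. FLAG and sh-CACUL1 were the low samples here, the reverse of the caveolins. The log2 change was 0.74 in FLAG-CACUL1 against FLAG and -1.18 in sh-CACUL1 against sh-Luc, so Pacsin2 was the only member past 2-fold on depletion. The controls were 2.18-fold apart, with FLAG below sh-Luc.

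The first of 3 annotated Pacsin2 starts, chr15:83464607-83464856 on the minus strand of GRCm38.p6 in RefSeq, is shown beside those of the caveolins because FLAG and sh-CACUL1 were the low samples of this gene and the high samples of the caveolins.
Pacsin2: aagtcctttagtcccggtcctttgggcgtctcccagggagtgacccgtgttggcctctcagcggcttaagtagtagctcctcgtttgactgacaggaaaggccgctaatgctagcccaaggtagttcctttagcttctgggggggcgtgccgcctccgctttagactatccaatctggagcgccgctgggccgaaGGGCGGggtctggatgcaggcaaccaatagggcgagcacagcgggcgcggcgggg

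With CACUL1 overexpressed, 3 of the 7 members (Cav1, Cav2 and Cavin2) passed the 2-fold limit as lower in FLAG-CACUL1 and 0 as higher. Over all genes, 14.7% passed 2-fold in this comparison, 7.51% as higher and 7.22% as lower. Of the remaining members, Cavin1 and Ehd2 were lower by less than 2-fold, Pacsin2 was higher by less than 2-fold, and Cavin3 was within 1.03-fold. The median log2 change of the members was -0.86, beside 0.09 over all genes. Among the 9563 genes that reached 1 FPKM in every sample, which include all 7 members, 15.2% passed 2-fold.

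With CACUL1 depleted, 1 member (Pacsin2) passed the limit as lower in sh-CACUL1 and 0 as higher. Over all genes, 21.3% passed 2-fold, 4.94% as higher and 16.4% as lower, so 1 of 7 is near the background. Cav1, Cav2, Cavin1, Cavin2 and Ehd2 were higher in sh-CACUL1 by 1.15-fold to 1.52-fold, and Cavin3 was 1.67-fold lower. The median log2 change was 0.32 for the members and -0.30 for all genes. The all-gene median moved to -0.01 under quantile normalization and to 0.01 under median-of-ratios scaling. Relative to the all-gene median of the deposited values, the log2 change was 0.87 for Cav1, 0.72 for Cav2, 0.90 for Cavin1, 0.49 for Cavin2, 0.63 for Ehd2, -0.43 for Cavin3 and -0.88 for Pacsin2.

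The controls FLAG and sh-Luc differ in vector and selection drug, and 2 members passed 2-fold between them, Cav1 higher in FLAG and Pacsin2 lower. Over all genes 21% passed, 8.58% as higher in FLAG and 12.4% as lower. Cav2 was close to the limit with a log2 difference of 0.91, and the members' median was 0.27 beside -0.18 for all genes. For Cav1, Cav2 and Cavin2, the difference between the controls was larger than the change on depletion. Vector and selection drug cannot be told apart from the line in this design.

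**Figure D2:**
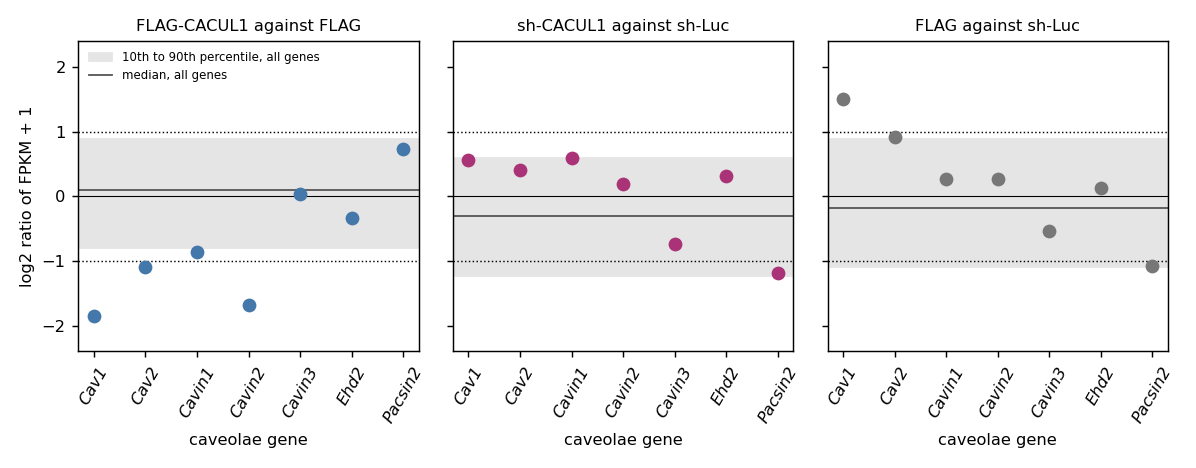
Log2 ratio of FPKM + 1 for each caveolae gene in 3 comparisons, with 1 sample per line. Grey bands hold the 10th to 90th percentile of all genes, the grey line is their median and dotted lines mark 2-fold. Cav1, Cav2 and Cavin2 lie below the lower dotted line in FLAG-CACUL1 against FLAG, and Pacsin2 does in the other comparisons.

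Because each comparison rests on 1 control, the lines were also set against the control of the other vector. Against sh-Luc, FLAG-CACUL1 was lower in all 7 members, but Cavin2 alone passed 2-fold (log2 difference -1.41), where 9.9% of all genes passed. The all-gene median of this comparison was itself below 0, at -0.10, and Cav2 at -0.19 and Ehd2 at -0.21 lay close to it. Cav1 was then at -0.35 in place of -1.85, and Pacsin2 at -0.35 in place of 0.74. Against FLAG, sh-CACUL1 had 0 members past 2-fold, where 22.9% of all genes passed, and Cav1 was lower in place of higher, with a log2 difference of -0.94. These comparisons share samples with those above and are no independent repeat of them.

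In 5 of the 7 members (Cav1, Cav2, Cavin1, Cavin2 and Ehd2), FLAG and sh-CACUL1 were the 2 highest samples, a place they had in 9.93% of all genes, and in 16.4% under quantile normalization and 18.4% under median-of-ratios scaling, where the same 5 members had it. In the other 2 (Cavin3 and Pacsin2) they were the 2 lowest, as in 31.5% of all genes, a share that was 20.2% under quantile normalization and 18.3% under median-of-ratios scaling, where Pacsin2 alone had this place. This way of counting was chosen after the values were seen. The full order of Cav1, Cav2 and Cavin2 was shared by 2.55% of all genes, that of Cavin1 and Ehd2 by 3.39%, and that of Cavin3 and Pacsin2 by 10.7%. Some steps in these orders were small. FLAG and sh-CACUL1 differed by 1.06-fold in Cavin2 and by 1.07-fold in Pacsin2, and FLAG-CACUL1 and FLAG by 1.03-fold in Cavin3, where the counting errors were 2.20% and 2.21%. For Cavin2 these errors were 3.70% and 3.73%, and for Pacsin2 3.35% and 3.41%, so these steps lie near or within counting error. With 1 sample per line, no spread between cultures is known against which such neighbours could be ranked.

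The scale of the values bears on these counts. In FLAG-CACUL1 against FLAG, Cav1, Cav2 and Cavin2 passed 2-fold under each of the 3 other scalings tried (quantile normalization, median-of-ratios scaling and TPM scaling, which gives every sample the same sum), with Cav1 between -1.99 and -1.74 and Cavin2 between -1.80 and -1.72. On depletion, median-of-ratios scaling moved Cav1 to 1.03 and Cavin1 to 1.07, both past 2-fold, and Pacsin2 to -0.73, whereas quantile normalization left 0 members past 2-fold. Cavin3 changed sign in FLAG-CACUL1 against FLAG, from 0.04 to -0.10, and Ehd2 in FLAG against sh-Luc, from 0.13 to -0.05. Both genes were near 0 before and after. Calls over all genes shifted as well, from 4.94% higher and 16.4% lower in sh-CACUL1 against sh-Luc to 9.0% and 8.28% under quantile normalization, to 9.41% and 7.45% under median-of-ratios scaling and to 7.94% and 15.7% under TPM scaling. The depleted line thus had more lower than higher calls under the deposited and TPM scales and slightly more higher than lower calls under the other scales. In FLAG-CACUL1 against FLAG median-of-ratios scaling gave 5.77% higher and 8.93% lower, and in FLAG against sh-Luc 12.0% higher and 7.16% lower. TPM scaling gave 8.25% higher and 20.8% lower in FLAG against sh-Luc, and quantile normalization 10.3% and 8.74%. Of 7 genes often used as scaling references, 1 passed 2-fold in FLAG-CACUL1 against FLAG, 3 in sh-CACUL1 against sh-Luc and 5 in FLAG against sh-Luc, and Gapdh was at 9160 FPKM in FLAG against 1342 to 1851 FPKM in the other lines.

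**Figure D3:**
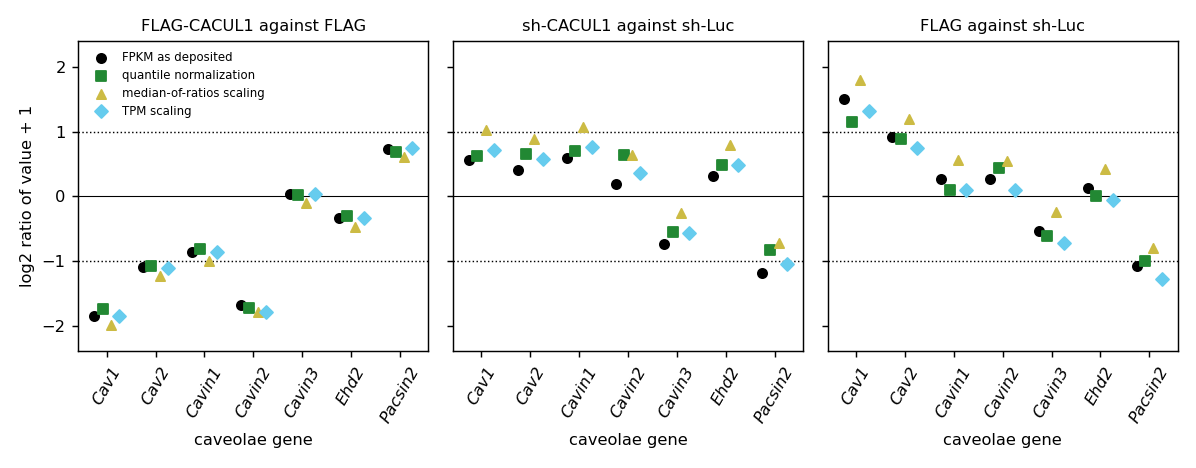
Log2 ratios of the caveolae genes under 4 scalings of the same 4 samples: FPKM as deposited, quantile normalization, median-of-ratios scaling and TPM scaling (a fixed sum in every sample). Dotted lines mark 2-fold. The spread between scalings is smallest in FLAG-CACUL1 against FLAG, and in sh-CACUL1 against sh-Luc it moves Cav1, Cavin1 and Pacsin2 across the limit.

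Ratios between members of the same sample are free of any scaling factor between samples, and they show that the set did not change as a unit. Cav1 was 6.22 times Cav2 in FLAG against 3.73 times in FLAG-CACUL1, and 4.17 times in sh-Luc against 4.60 times in sh-CACUL1. Cav1 was 3.06 times Cavin1 in FLAG but only 1.27 to 1.54 times in the other lines. The surplus of Cav1 over Cavin1 RNA was thus largest in the FLAG sample. Summed caveolins were 2.35 times summed cavins in FLAG and 0.877 to 1.13 times elsewhere. Cav1 and Cavin1 are the largest parts of these sums, so the sums are no separate observation. Among cavins, Cavin3 was 0.432 times Cavin1 in FLAG against 0.808 in FLAG-CACUL1, and 0.760 in sh-Luc against 0.300 in sh-CACUL1. Cavin1 was 24.2 times Cavin2 in FLAG-CACUL1 and 11.9 to 15.8 times in the other lines. Pacsin2 was 0.158 times Ehd2 in FLAG against 0.339 in FLAG-CACUL1, and 0.375 in sh-Luc against 0.128 in sh-CACUL1. The last ratio and that of Cavin3 to Cavin1 split the samples alike, with FLAG and sh-CACUL1 low and FLAG-CACUL1 and sh-Luc high.

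**Figure D4:**
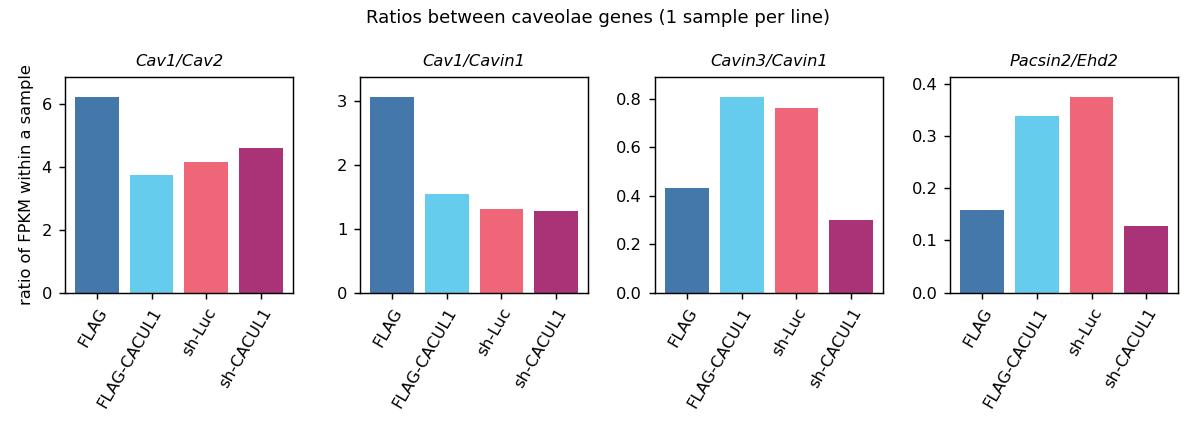
Ratios of FPKM between caveolae genes within each sample, as bars from 0 (1 sample per line). Cav1 to Cav2 and Cav1 to Cavin1 are highest in FLAG at 6.22 and 3.06, and Cavin3 to Cavin1 and Pacsin2 to Ehd2 are lowest in sh-CACUL1 at 0.300 and 0.128.

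Adipocyte markers were compared over the same samples. The cells are labelled as preadipocytes, and Fabp4, a fatty acid binding protein of adipocytes, was at 320.4 FPKM or more in all 4 lines. The 9 adipocyte markers measured, among them Adipoq, Fabp4 and Pparg, all had FLAG and sh-CACUL1 as the 2 highest samples, and their summed level was 8438 FPKM in FLAG against 883 in FLAG-CACUL1, and 1688 in sh-Luc against 17626 in sh-CACUL1. All 9 passed the 2-fold limit in each comparison with the line's own control, as lower on overexpression and as higher on depletion, with median log2 changes of -4.02 and 2.86. Cav1, Cav2, Cavin1, Cavin2 and Ehd2 had the direction of these markers in both comparisons, with smaller changes than the markers' medians. Not every marker exceeded them, since Lpl, the lipoprotein lipase gene, had a log2 change of -1.16 on overexpression, smaller in size than those of Cav1 and Cavin2. Pparg, the gene of PPARγ, was at 70.1 FPKM in FLAG against 12.3 in FLAG-CACUL1, and at 14.8 in sh-Luc against 61.8 in sh-CACUL1. The part of adipocyte content in the members' values was not tested.

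Pacsin2 and Cavin3 had the order of samples of Acta2 and Actb, which encode smooth muscle and cytoplasmic actin, and of the preadipocyte factor Gata2, which was at 0.457 FPKM or less in every line but sh-Luc. This order was that of 10.7% of all genes. Of the 9 preadipocyte and fibroblast markers measured, the other 7 had other orders. Actb is from the 7 scaling references, none of whose other genes had this order. Acta2 was at 2.90 FPKM in FLAG against 23.5 in FLAG-CACUL1, and 33.1 in sh-Luc against 1.27 in sh-CACUL1. The 9 preadipocyte and fibroblast markers measured summed to 2702 FPKM in FLAG against 3133 in FLAG-CACUL1, and 1305 in sh-Luc against 269 in sh-CACUL1. On overexpression 7 of the 9 were higher, 5 of them by 2-fold or more, and 1 passed the limit as lower (Dlk1, -1.28). The median log2 change of the 9 was 1.58. On depletion 7 of the 9 were lower, 5 of them past the limit, and 2 passed it as higher (Dlk1 at 4.19 and Thy1 at 4.41). The median of the 9 was -1.55. These medians have the signs of the Pacsin2 changes, and so do the medians over all genes, 0.09 and -0.30. Of other cells rich in caveolae, the 2 endothelial markers measured of 6 listed, Pecam1 and Vwf, were under 1 FPKM in every sample, with sums of 0.116 to 0.931 FPKM. The 2 of 5 muscle markers, Des and Myh11, summed to 1.54 to 8.83 FPKM. Of 5 macrophage markers, Cd68 and Csf1r were measured and summed to 16.8 FPKM in FLAG and to 1.08 to 1.84 FPKM elsewhere. Cd68 alone was at 16.2 FPKM in FLAG. The part of these cell types in the members' values was not tested.

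**Figure D5:**
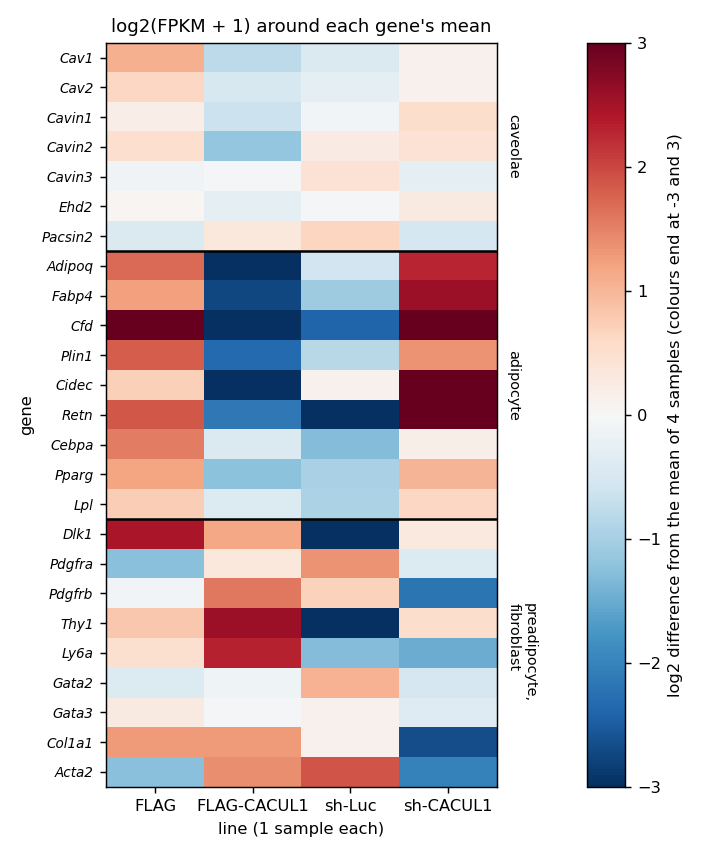
Log2(FPKM + 1) of caveolae genes and of adipocyte and preadipocyte or fibroblast markers, each row centred on its mean over the 4 samples, red above and blue below (1 sample per line). The upper 2 groups share red in FLAG and sh-CACUL1 except for Cavin3 and Pacsin2 (Cavin3 is pale in FLAG), and colours of the caveolae genes are mostly paler than those of the markers.

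The list of relatives holds other EHD and PACSIN genes, the muscle cavin Cavin4, dynamin-2, flotillins, stomatin and filamin A, and 10 of its 12 genes were measured. On overexpression 1 was at least 2-fold higher (Flot1, log2 change 1.33) and 1 lower (Cavin4, -1.16, at 1.31 FPKM or less in every sample). Over all genes 7.51% passed as higher and 7.22% as lower. On depletion 0 were higher and 2 lower, Ehd3 at -1.36 and Flna at -1.55. Over all genes 4.94% passed as higher and 16.4% as lower, so 2 of 10 is near the background. Flotillin-1 marks membrane rafts outside caveolae, and filamin A links caveolae to actin. The medians of the 10 relatives were 0.12 on overexpression and -0.67 on depletion. Those of the 7 members were -0.86 and 0.32, and those of all genes 0.09 and -0.30. In 7 of these 10 relatives FLAG and sh-CACUL1 were the 2 lowest samples, the place they had in Cavin3 and Pacsin2 and in 31.5% of all genes.

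Receptors, transporters and lipid enzymes that have been placed at caveolae or bind their proteins had larger median changes than the members. All 10 were measured. On overexpression 7 passed the limit as lower, beside 7.22% of all genes. On depletion 6 passed it as higher, beside 4.94% of all genes. In all, 8 were higher on depletion and 2 lower, Igf1r at -0.61 and Tgfbr1 at -0.91. When the controls were compared, 7 passed as higher in FLAG, beside 8.58% of all genes. Slc2a4, the insulin-responsive glucose transporter, was at 41.7 FPKM in FLAG against 0.101 in FLAG-CACUL1, and 1.13 in sh-Luc against 12.3 in sh-CACUL1. Cd36, a fatty acid translocase, was at 121, 34.4, 59.5 and 326 FPKM in the same order of lines. Insr, the insulin receptor, had a log2 change of -1.45 on overexpression and 0.37 on depletion, near those of Cav1. The list's medians were -1.49, 1.70 and 1.34 in the 3 comparisons, and Plin1 is also one of the adipocyte markers.

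For each member the genes with the most similar profile over the 4 samples were sought among 5934 genes with at least 5 FPKM in every sample, by the root mean square difference of centred log2(FPKM + 1). For Cav1 they included Arhgap29 (0.11) and Cacna1g (0.16). For Cav2 they were Mrpl45 (0.04), Dtx2 (0.04) and Ano10 (0.05), and for Cavin1 Akr7a5 (0.04), Cox4i1 (0.04) and Lonp2 (0.05). Mrpl45 encodes a mitochondrial ribosomal protein and Cox4i1 a subunit of cytochrome c oxidase. Cavin2 had no close match in this pool, with Lss at 0.16, 1810032O08Rik at 0.20 and Tfrc at 0.20. At 4.48 FPKM in FLAG-CACUL1, Cavin2 itself lies under the limit of 5 FPKM. Genes that fell as low were therefore not searched. For Cavin3 the nearest were Chrac1 (0.02), Scaf8 (0.03) and Washc3 (0.03), for Ehd2 Zcchc7 (0.03), Ndufa7 (0.03) and Tnfrsf1a (0.04), and for Pacsin2 Evc (0.03), Rbmxl1 (0.04) and Tsn (0.05). Each of these lay closer to its member than any other member did, but the pool was far larger than the set. The nearest of so many genes can lie closer for that reason alone, so no conclusion on likeness within the set is drawn from it. Between members the closest pairs were Cavin1 and Ehd2 at 0.25, Cav1 and Cav2 at 0.28, and Cavin3 and Pacsin2 at 0.29, and the most distant pair was Cav1 and Pacsin2 at 1.12. This likeness rests on 4 samples and says nothing of shared function or control.

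Promoter windows of 250 bases were searched on both strands for 9 motifs in 6 members with 10 annotated starts. The GC box (GGGCGG) was found in Cav1, Cav2, Cavin1, Ehd2 and Pacsin2, in 6 of the 10 windows, and in 32.7% of all 32851 windows. The windows of the annotated Cavin1 starts overlap, so the same Cavin1 site is counted more than once among the 6. A TATA box (TATAAA), on the strand opposite to the gene and 221 bases before the start, was found in Cav1 and in 12.4% of windows. The AP-1 motif (TGANTCA) was found in Cav2 and in the second Pacsin2 start, 2 of the 10 windows, and in 6.75% of all windows. In the sequences of Cav1, Cav2 and Pacsin2 printed above these matches are the runs in capitals, apart from that in the second Pacsin2 start. The C/EBP motif (TTNNGNAA) was found in Cav2, in 2 places 56 and 242 bases before the start, and in both downstream starts of Pacsin2. These are 3 of the 10 windows, beside 36.8% of all windows. The hexamer bound by PPAR (AGGTCA) was found in the most downstream Pacsin2 start and in 14.0% of windows. The DR1 element of PPAR, which is that hexamer repeated after 1 base, was found in no member and in 0.0335% of windows. An E-box (CACGTG, 6.02%), the CRE (TGACGTCA, 1.55%) and the CArG box of serum response factor (1.47%) were found in no member window. A motif match is a description of these letters and not a binding site.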

How the data were processed

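RNA-seq was done on 4 stable 3T3-L1 lines, 1 sample each. The authors deposited FPKM for 13110 rows of RefSeq transcripts per sample. The build was mm10 per the submitters' processing notes, and the aligner, the program behind FPKM, the strand setting and any filter are not given in the sources used here. Rows were joined to symbols through GENCODE M21. No symbol was found for 196 rows, 8 rows matched several, and 50 rows of 25 symbols were summed, which left 13085 genes. The lowest values, far below 1 fragment, were kept.

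Depth was estimated from the spacing of FPKM multiplied by transcript length in single-transcript rows of at least 3 kb. Counting errors follow from it and are approximate. Each of the 5 genes Cav1, Cav2 and Cavin1 to Cavin3 shared no 31-base stretch with any other gene, and Ehd2 and Pacsin2 shared at most 0.293%.

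With 1 sample per group no test was run. Changes are log2 ratios of FPKM + 1, which understates changes of low genes, called at 2-fold, the study's limit. Named genes were all 7 members, the fixed lists of relatives, residents and cell type markers, the 3 genes nearest in profile to each member (1 of these is not reported here), and Cacul1. The members and lists were chosen with earlier results of these data known. Promoters are RefSeq windows of GRCm38.p6 cut to the 250 bases before the start. The 10 alternatives were a pseudocount of 0.1 or none, at least 1 FPKM in any sample or in all, quantile normalization, median-of-ratios scaling, TPM scaling, the highest row per symbol, a limit of 1.5-fold and the other control. Scripts were tested on simulated data. Python 3.11.15, numpy 2.4.6, pandas 2.3.3 and matplotlib 3.10.9 were used.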

Additional observations from a re-analysis of the deposited data

How the results depend on the processing

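The count of members past 2-fold in FLAG-CACUL1 against FLAG was 3 and became 5 at 1.5-fold, which 34.3% of all genes passed, and 1 against the other control. In sh-CACUL1 against sh-Luc the count was 1 and became 0 under quantile normalization, 2 under median-of-ratios scaling, 3 at 1.5-fold, which 44.4% of all genes passed, and 0 against the other control. In FLAG against sh-Luc it was 2 and became 3 at 1.5-fold (43.0% of all genes), and under median-of-ratios scaling the 2 genes were Cav1 and Cav2 in place of Cav1 and Pacsin2. Of 182 recomputed changes of single members, 176 moved by less than 1.5-fold, and the other 6 moved against the other control. Some of the 182 could not move at all. Each member has 1 row and at least 4.48 FPKM, so the filters at 1 FPKM and the highest row per symbol left its values unchanged. The sign differed in 7 of the 182, of which 5 were against the other control. The members' median in sh-CACUL1 became -0.10 in that setting, from 0.32. TPM scaling left 4 members with FLAG and sh-CACUL1 the 2 highest samples, without Ehd2 (10.9% of all genes), and under quantile normalization, median-of-ratios scaling or TPM scaling Pacsin2 was the 1 member with them lowest (20.2%, 18.3% and 25.4% of all genes, respectively). These settings for the 2 highest and lowest samples were chosen after seeing the data. The cause of these shifts was not tested. Without a pseudocount, 3775 genes passed 2-fold in FLAG-CACUL1 against FLAG and 4799 in sh-CACUL1 against sh-Luc, from 1928 and 2788, since low values then count in full. No paired analysis was possible because each group has 1 sample, so no replicate can be left out either. Depth limits the small steps in Cavin2, Cavin3 and Pacsin2, with counting errors of 2.20% to 3.73%, and no spread between cultures is known for any value.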
